A study of Mus musculus with 8 samples.

Results

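The genes described here encode enzymes of xenobiotic metabolism, the conversion of drugs, pesticides and other foreign compounds into forms that can be excreted. They were chosen by symbol alone: the cytochrome P450 families Cyp1 to Cyp4, the cytosolic sulfotransferases (Sult), the glutathione S-transferases (Gst), the aldehyde oxidases (Aox), the UDP-glucuronosyltransferases Ugt1 and Ugt2, and the flavin-containing monooxygenases (Fmo). The array held 141 such genes, each read by 1 transcript cluster, out of 19505 genes and 22206 transcript clusters. They comprise 80 P450 genes (3 Cyp1, 47 Cyp2, 9 Cyp3 and 21 Cyp4), 21 Sult, 22 Gst, 4 Aox, 8 Ugt, all of them Ugt2, and 6 Fmo genes. The P450 genes include 3 pseudogenes, Cyp4f41-ps, Cyp2d37-ps and Cyp4b1-ps2. Gstcd entered by its name, which denotes a glutathione S-transferase C-terminal domain, although it is not counted among the classical enzyme classes.

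RNA came from the hippocampus of male mice whose dams were dosed by mouth with clothianidin or with vehicle. Clothianidin is an insecticide of the neonicotinoid class, whose target is the nicotinic acetylcholine receptor. Dosing at 65 mg/kg/day, the no-observed-adverse-effect level, ran over postnatal days 1 to 4, and the offspring were taken at 3 or 10 weeks of age. This gives 4 groups of 2 arrays: vehicle at 3 weeks, clothianidin at 3 weeks, vehicle at 10 weeks and clothianidin at 10 weeks. Each array used 250 ng of total RNA, and RNA with an integrity number above 7.0 was accepted. The pups were exposed through their dams, and whether the 2 arrays of a group stand for different animals or litters is not stated in the labels. All p-values thus reflect the spread between these samples alone, and that spread may be technical. Values are log2 intensities, so a difference of 1 is a 2-fold change. A level is stated below only by its place within the array, since the probes of different genes bind with different strength.

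Xenobiotic metabolism is usually divided into steps. In the first, P450 enzymes, aldehyde oxidases and flavin monooxygenases oxidise or reduce a compound. In the second, sulfotransferases, glutathione S-transferases and glucuronosyltransferases attach a polar group to it. Both steps are best known from liver. Many of the same enzymes also act on the body's own steroids, fatty acids, bile acids and neurotransmitters, and several are made in neurons, glia or the vessels of the brain. Clothianidin itself is demethylated by P450 enzymes and has its nitroguanidine group reduced by aldehyde oxidase in liver.

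The labelled tissue was checked against its markers. All 9 hippocampal neuron markers and all 8 astrocyte markers measured lay above the median of every array. Of 7 hepatocyte markers, 2 lay below the lower quartile of every array and none above the median of every array, and their mean ran from 3.92 to 4.23. Array lower quartiles were 3.85 to 4.13, medians 5.73 to 5.86 and upper quartiles 8.64 to 9.03. Some arrays stood apart. Values were least spread in the first vehicle array at 3 weeks (SD 3.14, against 3.26 to 3.39). The second vehicle array at 3 weeks and the first clothianidin arrays at both ages carried strong choroid plexus signal, with Ttr at 19.16, 18.82 and 18.25 and at 5.24 to 7.37 elsewhere. Among the xenobiotic metabolism genes, Cyp2t4 alone had its 3 highest arrays in those 3 (0.709%, against 1.62% of all clusters). Cyp2c68, Cyp2f2, Cyp4a31 and Sult2b1 had their 3 lowest there, 4 of the 141 genes, against 388 of all 22206 clusters.

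Few of the genes read in the bright part of the arrays, and glutathione S-transferases were the most numerous of these. Only 6 of the 141 genes lay above the upper quartile of every array: 5 glutathione S-transferases and the sulfotransferase Sult4a1. A further 19 lay above the median of every array. Of these 25 genes in all, 12 were Gst, 6 Cyp2, 3 Cyp4, 2 Sult and 2 Fmo. No Cyp1, Cyp3, Aox or Ugt gene was among them. At the other end, 38 genes never reached the lower quartile of an array, in the range where no signal was shown to exceed background: 12 Cyp2, 6 Cyp4, 5 Ugt, 4 Cyp3, 4 Sult, 4 Gst, 2 Cyp1 and 1 Fmo gene. The remaining 78 lay in between or crossed these lines. Over the 8 arrays a gene's values spanned a median of 1.22 log2 units, from 0.44 for Cyp2d13 to 2.76 for Sult3a2, and 13 genes spanned more than 2.

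**Figure D1:**
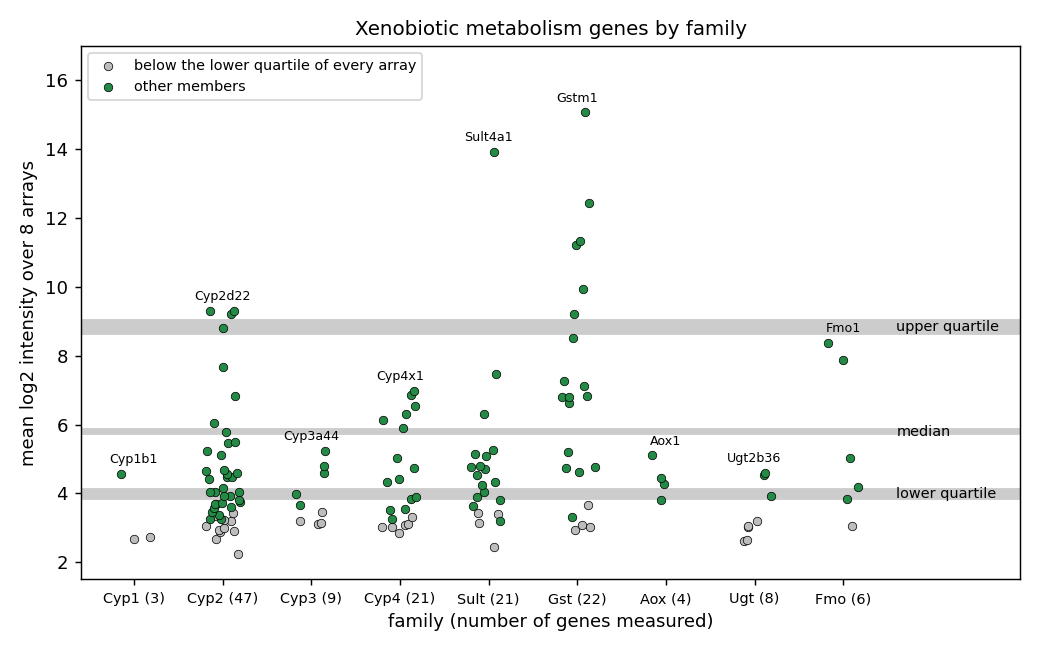
Mean log2 intensity over 8 arrays of each of the 141 genes, by family, with the number of genes measured in each family on the horizontal axis. Grey bands give the range of the array lower quartiles, medians and upper quartiles; grey points are the 38 genes under the lower quartile on all arrays, and the gene with the highest mean is named in each family.

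The 6 genes above the upper quartile of every array overlapped between the ages, and none of them passed the test for age or exposure. Gstm1, a mu class glutathione S-transferase, read 14.53 and 15.14 with vehicle and 14.83 and 15.39 with clothianidin at 3 weeks. At 10 weeks it read 15.49 and 14.75 with vehicle and 15.60 and 14.83 with clothianidin, so the 4 groups overlapped. Gstm5, another mu class gene, stayed between 12.11 and 12.68. Sult4a1, a sulfotransferase enriched in brain whose substrate is not well established, read 13.26 in 1 vehicle array at 3 weeks and 13.88 to 14.26 elsewhere. The pi class gene Gstp2 read 10.83 to 11.51. Gsta4, which conjugates the lipid peroxidation product hydroxynonenal, read 9.26 to 10.55. Its relatives Gsto1, an omega class enzyme that reduces dehydroascorbate, and Gstz1, an isomerase of tyrosine breakdown, lay above the median of every array at 8.07 to 9.01 and 6.34 to 7.58.

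Among the phase I genes above the median of every array were P450 genes known for fatty acid metabolism in brain. Cyp2u1, a hydroxylase of long-chain fatty acids, read 8.68 to 9.71. Cyp2j9, a brain P450 that hydroxylates arachidonic acid, read 8.55 to 10.23, and Cyp2j6 read 8.44 to 9.0. Cyp4x1, a P450 found mainly in brain, read 6.24 to 7.37. Fmo1 and Fmo2, which oxygenate nitrogen and sulfur atoms of drugs, lay there too. The P450 genes most used as signs of induction were dim: Cyp1a1, the classical target of the aryl hydrocarbon receptor, stayed between 2.44 and 3.05 in the 8 arrays, and Cyp1a2, a hepatic enzyme that clears caffeine, between 2.02 and 3.51. Cyp1b1, which is made in vessels, read 4.13 to 4.87. Cyp2e1, which oxidises ethanol, read 3.65 to 4.66. The aldehyde oxidases Aox1, Aox2, Aox3 and Aox4 read 3.22 to 5.83, none of them above the median of every array.

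The first comparison set 10 weeks against 3 weeks over both exposures. Gstt1, Sult2a1, Cyp4f39, Gstm2 and Cyp2d22 were higher at 10 weeks, by 1.00 to 1.64 on the log2 scale. Fmo1, Cyp2c55, Cyp3a11 and the oestrogen sulfotransferase gene Sult1e1 were lower, by 0.87 to 1.40. In limma, 21 of the 141 genes (14.9%) passed an adjusted p of 0.05, against 2490 of all 22206 clusters (11.2%), so that the share of these genes was near that of the array. Of the 21, 12 rose (8.51%, against 6.37% of all clusters) and 9 fell (6.38%, against 4.84%). The 4 arrays at one age did not overlap the 4 at the other in 30 genes (21.3%, against 19.7%). The median difference was -0.02 over the 141 genes and 0.07 over all clusters. In bulk tissue, fewer cells of a type and less RNA per cell cannot be told apart.

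The 2 genes of phase I that changed while above the median of every array moved in opposite directions. Fmo1 read 8.76 and 9.07 with vehicle and 8.91 and 9.08 with clothianidin at 3 weeks. At 10 weeks it read 8.03 and 8.12 with vehicle and 7.64 and 7.31 with clothianidin. Every array at 10 weeks lay below every array at 3 weeks, and the difference was -1.18 ± 0.19 (model SE, n = 4 arrays per age) with an adjusted p of 0.0072 in limma. Cyp2d22, the mouse gene most often set beside human CYP2D6, read 8.38 and 8.96 with vehicle and 8.65 and 9.22 with clothianidin at 3 weeks. It read 9.29 and 10.10 with vehicle and 9.79 and 10.02 with clothianidin at 10 weeks. The ages did not overlap, although the lowest array at 10 weeks exceeded the highest at 3 weeks only narrowly. Its rise was 1.00 ± 0.25, with an adjusted p of 0.0288 in limma. Fmo9 also fell, by 0.81 ± 0.24 (adjusted p = 0.0483), with overlapping ages. Fmo2 read 7.39 to 8.39 at 3 weeks and 7.75 to 8.06 at 10 weeks and did not pass, nor did Fmo5, at 4.62 to 5.36 over the 8 arrays.

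Among the Cyp2c genes, which hydroxylate or epoxidise fatty acids and drugs, some rose and others fell. Cyp2c38 read 2.96 to 3.37 at 3 weeks and 3.97 to 4.36 at 10 weeks, a rise of 1.04 ± 0.19 (adjusted p = 0.0115). Cyp2c69 rose by 1.04 ± 0.25 (adjusted p = 0.0249), from 2.56 to 3.57 at 3 weeks to 4.01 to 4.42 at 10 weeks. Both genes lay below the lower quartile of their arrays at 3 weeks. Cyp2c55 read 5.45 and 4.37 with vehicle and 5.10 and 5.75 with clothianidin at 3 weeks, and 3.89, 3.57, 4.17 and 3.46 in the same order at 10 weeks. Its fall of 1.40 ± 0.28 (adjusted p = 0.0146) was without overlap, though the second vehicle array at 3 weeks came close to the 10 week arrays. Of the 10 week arrays, only the first clothianidin array read above its lower quartile. Cyp2c54 read 4.38 to 4.84 at 3 weeks and 3.19 to 3.97 at 10 weeks, a fall of 0.92 ± 0.22 (adjusted p = 0.0263). Its 10 week values reached below the lower quartile, which was 3.85 to 3.99 in those arrays. In RefSeq gene order these genes lie in a single run of Cyp2c genes from Cyp2c55 to Cyp2c70, in which 13 genes were measured: 2 rose, 2 fell, and of all 13, 7 were higher and 6 lower at 10 weeks. Probes of such close relatives can bind each other's transcripts, so that values within a run of paralogs are uncertain.

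The other P450 families gave fewer calls. Cyp4f39, which hydroxylates very long fatty acids for the lipids of the skin barrier, read 2.36 and 2.64 with vehicle and 2.45 and 2.64 with clothianidin at 3 weeks. It read 3.83, 3.61, 3.71 and 3.62 at 10 weeks, above every 3 week array but below the lower quartile throughout. The rise was 1.17 ± 0.19, with an adjusted p of 0.0069 in limma. Cyp3a11, the main drug-metabolising Cyp3a gene of mouse liver, read 5.31, 5.18, 5.55 and 5.0 at 3 weeks and 4.81, 4.33, 4.28 and 4.00 at 10 weeks. It fell by 0.91 ± 0.21 (adjusted p = 0.0236) without overlap, while its neighbour Cyp3a16 rose by 0.91 ± 0.23 (adjusted p = 0.0314) with overlapping ages. Cyp2j8 read 2.79 to 3.87 at 3 weeks and 4.37 to 4.77 at 10 weeks and rose by 1.14 ± 0.25 (adjusted p = 0.0191). Its 3 week values lay below the lower quartile of their arrays. Cyp2c23 completes the P450 genes that rose, at 0.87 ± 0.21 (adjusted p = 0.0278). Cyp3a16 and Cyp2c23 were named for completeness after their values were seen. None of the 3 Cyp1 genes and none of the 4 aldehyde oxidase genes passed. Aox1 came nearest among the latter, at 5.17 to 5.83 at 3 weeks and 3.95 to 5.08 at 10 weeks, a difference of -0.77 ± 0.25 with an adjusted p of 0.070.

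In phase II, the glutathione S-transferase calls were all rises. Gstt1, a theta class enzyme that conjugates small halogenated compounds, read 3.55 and 4.09 with vehicle and 3.55 and 3.97 with clothianidin at 3 weeks. At 10 weeks it read 5.55 and 5.16 with vehicle and 5.65 and 5.35 with clothianidin. At 3 weeks its values in the first vehicle and the first clothianidin array lay below the lower quartile of those arrays. The ages were separated by more than 1 log2 unit, and the rise of 1.64 ± 0.22, 3.11-fold, had the lowest adjusted p of the 141 genes, 0.0036 in limma. Its neighbours Gstt2, Gstt3 and Gstt4 lay below the lower quartile of every array and gave -0.73 ± 0.25, -0.19 ± 0.20 and -0.34 ± 0.19, none past the threshold. Gstm2, a mu class enzyme, read 5.85, 6.50, 6.13 and 6.59 at 3 weeks and 7.69, 7.70, 7.34 and 6.89 at 10 weeks, a rise of 1.14 ± 0.22 (adjusted p = 0.0134) without overlap. Its rise was 1.52 with vehicle and 0.76 with clothianidin. All 7 genes of the Gstm run were higher at 10 weeks, as were 55.9% of all clusters, and Gstm2 was the only one past the threshold. These are close relatives too, so that their values are uncertain in the same way as those of the Cyp2c run. Gstcd, which entered by its name and is not counted among the classical enzyme classes, also rose. It read 4.52 to 4.79 at 3 weeks and 5.24 to 5.96 at 10 weeks, a rise of 1.08 ± 0.21 (adjusted p = 0.0127).

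Sulfotransferase genes moved both ways, 2 up and 3 down among the 5 that passed. Sult2a1, which sulfates bile acids and steroids, read 5.68, 6.25, 5.66 and 5.27 at 3 weeks and 7.38, 6.72, 7.20 and 6.27 at 10 weeks. The lowest array at 10 weeks and the highest at 3 weeks were 0.02 apart, and the rise was 1.18 ± 0.27 with an adjusted p of 0.0203. Sult1b1, which sulfates thyroid hormones and small phenols, rose by 1.11 ± 0.27 (adjusted p = 0.0283) with overlapping ages. Sult1e1 read 5.42 and 5.16 with vehicle and 4.55 and 4.79 with clothianidin at 3 weeks, and 3.88, 4.08, 4.07 and 4.42 at 10 weeks. The difference was -0.87 ± 0.19 (adjusted p = 0.0200), with -1.31 among vehicle and -0.42 among clothianidin arrays. Sult1a1, the sulfotransferase of simple phenols, read 5.16 to 6.16 at 3 weeks and 4.51 to 4.89 at 10 weeks, a fall of 0.83 ± 0.23 (adjusted p = 0.0438). Sult2a8, a bile acid sulfotransferase of mouse liver, read 5.01, 4.82, 5.32 and 4.28 at 3 weeks and 3.00, 3.18, 3.63 and 4.60 at 10 weeks. Here 1 clothianidin array at 10 weeks lay within the 3 week range, and the remaining 10 week arrays lay below their lower quartile. The difference was -1.26 ± 0.28 (adjusted p = 0.0193), with -1.83 among vehicle and -0.69 among clothianidin arrays. The glucuronosyltransferase gene Ugt2a3 fell by 1.12 ± 0.24 (adjusted p = 0.0176), from 3.62 to 3.92 at 3 weeks to 2.03 to 3.02 at 10 weeks, all below the lower quartile of its arrays. Sult2b1, which sulfates cholesterol, read 7.10 to 7.82, and the glucuronosyltransferase genes Ugt2b35 and Ugt2b38 read 3.92 to 5.54 and 3.38 to 4.51; none of these 3 passed.

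**Figure D2:**
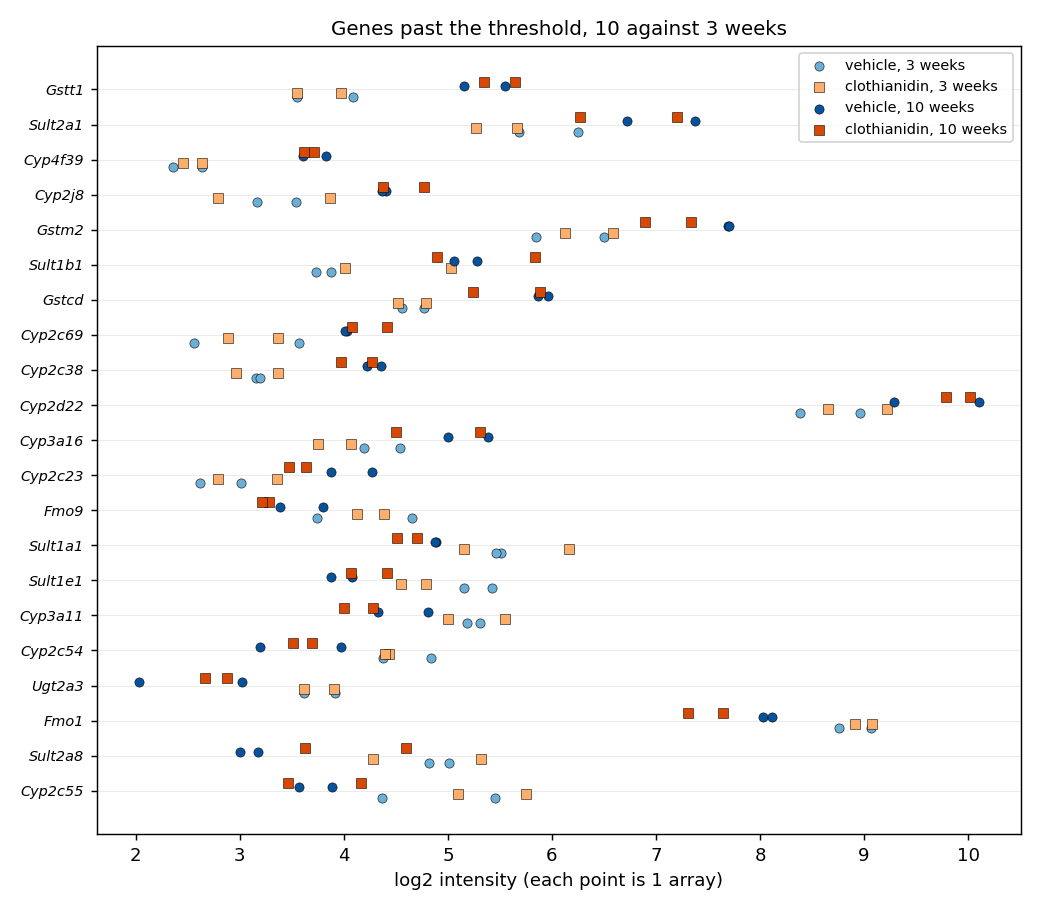
Log2 intensity in each of the 8 arrays for the 21 genes past an adjusted p of 0.05 between 10 and 3 weeks, ordered by their difference. Light symbols are 3 week arrays, dark symbols 10 week arrays, circles vehicle and squares clothianidin; the upper 12 genes rose and the lower 9 fell, with no overlap between ages in 17 of the 21.

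Of the 21 genes, 3 lay above the median of every array (Cyp2d22, Fmo1 and Gstm2), 2 below the lower quartile of every array (Cyp4f39 and Ugt2a3) and 16 in between. When each array was left out in turn, Gstt1, Fmo1, Cyp4f39 and Cyp2c38 passed in all 8 fits, Gstcd and Gstm2 in 6 and Cyp2c55 in 5. The other 14 passed in 1 to 4 fits. Among the 3 week arrays, omitting the first or second vehicle array left 9 or 22 genes past the threshold, and omitting the first or second clothianidin array left 8 or 11. Among the 10 week arrays, omitting the first or second vehicle array left 14 or 9, and omitting the first or second clothianidin array left 6 or 10. The counts over all clusters moved as well, between 628 and 2550. Age was also read within each exposure in the same model. In the vehicle arrays none of the 141 genes passed in limma, against 0.315% of all clusters, and 34 had an unadjusted p under 0.05 (24.1%, against 19% of all clusters). Gstt1 and Fmo1 passed in the clothianidin arrays (1.42%, against 0.563%). Without the 3 arrays with Ttr above 18, no cluster of the array passed. All 21 differences kept their sign in that fit. Sizes were read out for 19 of the 21, from 0.80 to 2.0, and 18 of them stayed within 1.5 times their value above. Sult2a8 was the exception, at -0.80.

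The list means of oligodendrocytes and microglia did not overlap between the ages. All 6 oligodendrocyte markers measured fell from 3 to 10 weeks, and their mean ran from 12.54 to 13.81 at 3 weeks and from 11.46 to 11.89 at 10 weeks, with all 6 above the median of every array. The mean of 12 choroid plexus markers overlapped between ages, at 5.16 to 9.17 and 4.67 to 9.02. Of the other lists, Foxc1 of the meninges and Dkk3 of hippocampal neurons rose and no other marker passed. Of all clusters, 4.84% passed as lower and 6.37% as higher at 10 weeks. The part of these cell types in the age differences was not tested.

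The sequences upstream of genes that differed with age are given for 4 of them, 2 rises of phase II, 1 rise and 1 fall of P450 genes. Each window holds the 250 bases before the transcription start, read 5′ to 3′ on the strand of the gene, from RefSeq's table of GRCm38.p6. The windows are chr10:75797732-75797981 on the minus strand for Gstt1, chr3:107986421-107986670 on the minus strand for Gstm2, chr17:32452473-32452722 on the plus strand for Cyp4f39 and chr5:145879855-145880104 on the minus strand for Cyp3a11. Capitals mark the core bound by the aryl hydrocarbon receptor, GCGTG, on either strand.
Gstt1: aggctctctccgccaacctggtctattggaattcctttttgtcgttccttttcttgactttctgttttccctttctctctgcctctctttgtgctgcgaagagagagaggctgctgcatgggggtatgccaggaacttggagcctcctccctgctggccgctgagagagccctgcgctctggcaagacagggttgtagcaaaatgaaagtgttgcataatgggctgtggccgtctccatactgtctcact
Gstm2: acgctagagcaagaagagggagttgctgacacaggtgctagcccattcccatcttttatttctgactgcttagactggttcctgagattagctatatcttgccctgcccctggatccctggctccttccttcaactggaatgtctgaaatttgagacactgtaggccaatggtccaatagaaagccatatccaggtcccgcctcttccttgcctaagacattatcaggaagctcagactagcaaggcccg
Cyp4f39: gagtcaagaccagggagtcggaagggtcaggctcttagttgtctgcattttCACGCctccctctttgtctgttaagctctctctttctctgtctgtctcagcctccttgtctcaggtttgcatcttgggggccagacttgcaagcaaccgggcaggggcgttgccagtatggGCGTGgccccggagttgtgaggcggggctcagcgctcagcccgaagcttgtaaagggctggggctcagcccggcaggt
Cyp3a11: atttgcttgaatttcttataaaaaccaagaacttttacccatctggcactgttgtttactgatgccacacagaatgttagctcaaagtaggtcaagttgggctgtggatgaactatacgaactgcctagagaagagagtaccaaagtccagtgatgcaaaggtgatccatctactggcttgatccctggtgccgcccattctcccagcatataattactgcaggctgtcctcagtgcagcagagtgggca

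The Cyp4f39 window held 2 copies of the core, 1 on each strand, and the other 3 windows held none. The RefSeq table matched 116 of the 141 genes with 136 such windows, since some genes have more than 1 start. The core GCGTG occurred in 24 of the 136 windows (17.6%), against 28.2% of 32851 windows of all genes. Among the genes that changed with age, 16 had 19 windows, and 3 of these held the core (15.8%). They were the window of Cyp4f39 and 1 of the 2 windows each of Gstcd and Sult1b1. The antioxidant response core TGACNNNGC, searched on both strands, occurred in 5 of the 136 windows (3.68%, against 10.2% of all windows) and in 0 of the 19. A match of letters is a description of these windows only. Motifs further upstream and motifs of other receptors were not searched, so a window without a core says nothing about them.

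The second comparison asked which genes differed between clothianidin and vehicle at 3 weeks, some weeks after the exposure. Among genes whose groups did not overlap, the largest moderated t belonged to Sult2a2, Cyp3a13 and Sult2a5, which read higher after clothianidin, and to Ugt2b36, Fmo2 and Cyp3a57, which read lower. None of the 141 genes passed an adjusted p of 0.05 in limma, nor did any of the 22206 clusters (0%), and the lowest adjusted p among the 141 was 0.846. An unadjusted p under 0.05 was found for 13 genes (9.22%, against 5.9% of all clusters), 8 higher and 5 lower. The 2 vehicle and 2 clothianidin arrays did not overlap in 47 genes (33.3%, against 34.4%), 25 of them higher (17.7%, against 17.2%) and 22 lower (15.6%, against 17.2%). The median difference was -0.03 and differed little from that of all clusters, -0.005.

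Sult2a2, a hydroxysteroid sulfotransferase, read 4.28 and 4.61 with vehicle and 6.29 and 5.78 with clothianidin at 3 weeks. The groups did not overlap, and the difference was 1.59 ± 0.38 (model SE, n = 2 per group; adjusted p = 0.846 in limma). At 10 weeks it read 5.57 and 5.18 with vehicle and 4.64 and 5.76 with clothianidin, with overlap. Cyp3a13, a Cyp3a gene known from the intestine, read 3.32 and 3.12 with vehicle and 4.48 and 4.67 with clothianidin at 3 weeks, a difference of 1.36 ± 0.32 (adjusted p = 0.846). Its vehicle values lay below the lower quartile of their arrays and its clothianidin values above it. At 10 weeks its groups overlapped, at 3.72 and 4.44 with vehicle and 4.36 and 3.83 with clothianidin. Sult2a5, in the same gene run as Sult2a2, read 3.53 and 3.97 against 4.75 and 4.49, a difference of 0.87 ± 0.28.

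On the lower side, Ugt2b36, a glucuronosyltransferase, read 5.25 and 4.79 with vehicle and 4.06 and 3.94 with clothianidin at 3 weeks, a difference of -1.02 ± 0.27. Fmo2, a monooxygenase best known from lung, read 8.39 and 7.98 in vehicle against 7.39 and 7.51, a difference of -0.74 ± 0.28, and it was the only one of these 6 genes above the median of every array. Cyp3a57 read 4.10 and 3.57 against 3.45 and 2.66, a difference of -0.78 ± 0.33, with every value below the lower quartile. Omitting the first vehicle array gave -0.52, and omitting the first or second clothianidin array gave -1.18 or -0.39. Without the 3 arrays with Ttr above 18 it was -1.44. None of these 3 genes passed in limma (adjusted p = 0.846).

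A single array lay behind other values at 3 weeks. Gstk1, the kappa class enzyme of mitochondria and peroxisomes, read 5.17 and 7.41 with vehicle and 7.59 and 7.76 with clothianidin, a difference of 1.39 ± 0.61. Gstp1, a pi class enzyme, read 10.19 and 11.33 against 11.55 and 11.59, a difference of 0.81 ± 0.37. In both genes the first vehicle array, the one with the narrowest spread, was far below the second. Omitting it left 0.27 for Gstk1 and 0.24 for Gstp1, and omitting the second instead left 2.50 and 1.38. The first vehicle array read lowest by more than 1 log2 unit in Gstk1, Gstp1 and Gstm7 (7.86, against 9.12 to 10.08 elsewhere) and in 160 of the 22206 clusters. It was the lowest array in 26 of the 141 genes (18.4%, against 20.7% of all clusters) and the highest in 32 (22.7%, against 17.1%). Ugt2b36 and Fmo2 were highest in it. Omitting it left -0.79 for Ugt2b36 and -0.53 for Fmo2, and omitting the second vehicle array instead left -1.25 and -0.94. Gstk1 and Gstm7 were named after their values were seen.

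At 10 weeks, Sult2a8, Cyp4a32 and Aox1 read higher after clothianidin and Cyp2c65, Aox4 and Cyp4f18 lower. Again 0 of the 141 genes and of all clusters (0%) passed in limma, and the smallest adjusted p among the 141 was 0.997. Before adjustment, 5 genes had an unadjusted p under 0.05 (3.55%, against 3.69%), 1 higher and 4 lower. Groups did not overlap in 44 genes (31.2%, against 30.7%). They split into 14 higher (9.93%, against 15.4%) and 30 lower (21.3%, against 15.3%), while the median difference of the 141 genes was -0.04 and that of all clusters 0.005. Apart from this split, which was not tested, the counts were close to those over all clusters.

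The aldehyde oxidases are the enzymes that reduce neonicotinoids in liver, and they gave no shared direction. Aox1 read 4.87 and 3.95 with vehicle and 5.08 and 4.99 with clothianidin at 10 weeks, a difference of 0.63 ± 0.35. Omitting the second vehicle array left 0.17, and omitting the first left 1.08. At 3 weeks Aox1 read 5.30 and 5.65 with vehicle and 5.83 and 5.17 with clothianidin, which overlap. Aox4, known from the Harderian gland, read 4.96 and 4.76 with vehicle and 3.97 and 4.06 with clothianidin at 10 weeks, a difference of -0.85 ± 0.26 (adjusted p = 0.997 in limma). At 3 weeks its clothianidin arrays lay above its vehicle arrays, 4.59 and 4.64 against 4.38 and 4.22. Aox2, known from the nose, and Aox3, the main aldehyde oxidase of mouse liver, overlapped between exposures at both ages, at 3.72 to 4.60 and 3.22 to 4.68.

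Sult2a8 read 3.00 and 3.18 with vehicle and 3.63 and 4.60 with clothianidin at 10 weeks, a difference of 1.03 ± 0.39 that dropped to 0.54 when the second clothianidin array was omitted. Cyp4f18, which hydroxylates leukotrienes in neutrophils, read 6.20 and 5.99 against 5.12 and 5.44, a difference of -0.82 ± 0.31. Cyp2c65 read 5.47 and 4.26 against 2.86 and 4.25, a difference of -1.31 ± 0.51, with 4.26 and 4.25 all but equal. Omitting the first vehicle array gave -0.70, and omitting the first or second clothianidin array gave -0.61 or -2.0. The fit without the 3 arrays with Ttr above 18, of which that first clothianidin array is 1, gave -0.61 as well. Cyp4a32 read 2.42 and 2.49 against 2.77 and 3.77, all below the lower quartile, a difference of 0.82 ± 0.42. Omitting the first or second clothianidin array gave 1.31 or 0.32, and the fit without the 3 arrays 1.31. None of the 4 passed in limma (adjusted p = 0.997). Some cell-type list means did not overlap between the exposures at 10 weeks. The mean of hippocampal neuron markers read 13.48 and 13.61 with vehicle and 13.85 and 13.77 with clothianidin. That of oligodendrocyte markers read 11.46 and 11.52 against 11.69 and 11.89, and that of ependyma markers 4.92 and 4.74 against 4.56 and 4.65. The mean of 10 markers of meninges and fibroblasts read 8.05 and 7.66 with vehicle and 7.36 and 6.89 with clothianidin. Of the 10, 9 had a lower mean after clothianidin, against 48.7% of all clusters. Lower without overlap were 6 of the 10, against 15.3% of all clusters. Fmod gave -2.54, and 0 of the 10 passed in limma (adjusted p = 0.997). The part of any of these cell types in the exposure differences at 10 weeks was not tested.

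**Figure D3:**
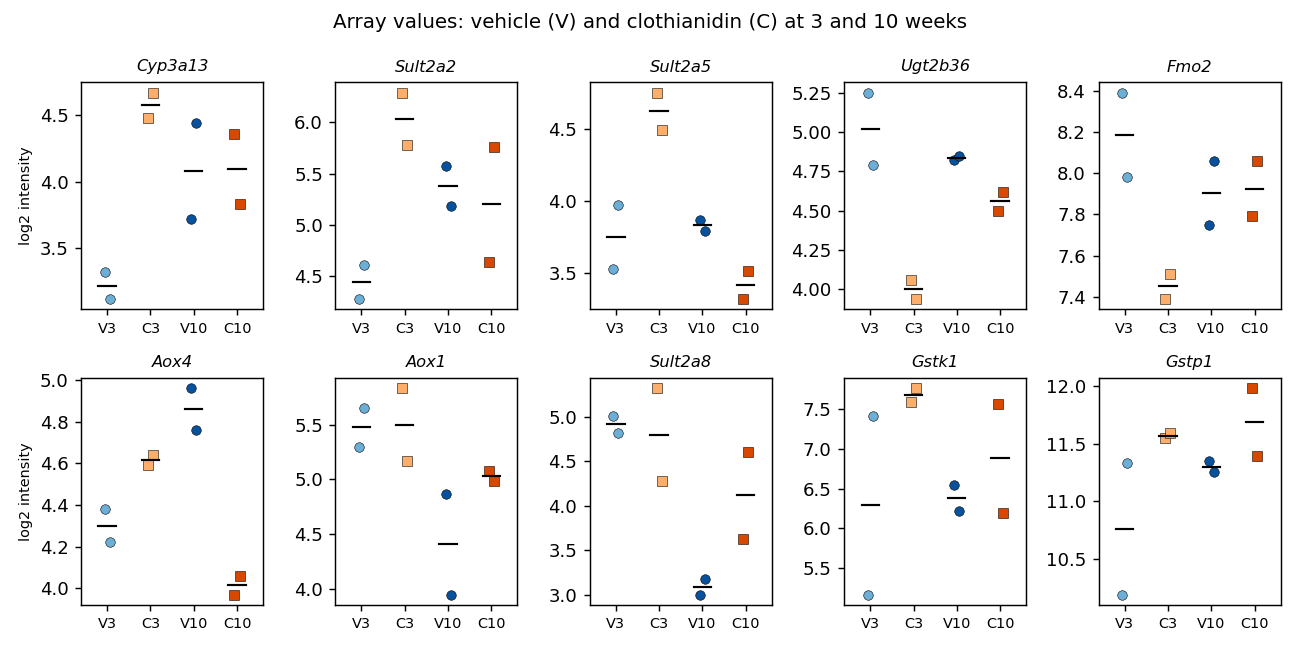
Log2 intensity of 10 genes in each array, for vehicle (V, circles) and clothianidin (C, squares) at 3 and 10 weeks; each point is 1 array, the bar is the mean of 2, and the vertical scale differs between panels and does not start at 0. Sult2a2 and Cyp3a13 are apart at 3 weeks and overlap at 10 weeks, Aox4 lies on opposite sides at the 2 ages, and Gstk1 and Gstp1 have 1 low vehicle array at 3 weeks.

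The exposure differences of the 2 ages rest on separate arrays and were also compared directly. No gene passed for the difference between the ages in limma, nor did any cluster (0%), and the smallest adjusted p of the 141 was 0.998. Of the 141, 8 had an unadjusted p under 0.05 (5.67%, against 3.13%). Sult2a2 gave -1.77 ± 0.53 for 10 minus 3 weeks, or -1.11 without the 3 arrays with Ttr above 18, in which fit Sult2a5 exceeded it in size. The next values were Cyp3a13 at -1.34 ± 0.45, Sult2a5 at -1.29 ± 0.39 and Aox4 at -1.16 ± 0.36. Sult1e1 gave 0.89 ± 0.39 the other way. Cyp4a32 gave 1.23 ± 0.60, which came to 0.72 when the second clothianidin array at 10 weeks was left out and to 0.66 when the first vehicle array at 3 weeks was. Sult2a8 gave 1.14 ± 0.56, or 0.66 and 0.62 when the second clothianidin array at 10 or at 3 weeks was omitted. Without the 3 arrays with Ttr above 18, Cyp4a32 came to 2.02 and Sult2a8 to 2.24.

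Averaged over both ages, 0 genes and 0 clusters passed in limma (0%), and the smallest adjusted p among the 141 was 0.774. In all, 11 genes had an unadjusted p under 0.05 (7.8%, against 6.17%). Groups were apart at both ages in the same direction in 9 genes (6.38%, against 6.88%): Cyp1b1, Cyp2j5, Cyp3a41b and Gstp1 read higher after clothianidin, and Cyp3a57, Cyp4a12b, Fmo4, Ugt2b34 and Ugt2b36 lower. Aox4 and Sult2a5 were apart in opposite directions (1.42%, against 3.83%). Ugt2b36 gave a mean of -0.65 ± 0.19, from the 3 week values above and 4.82 and 4.85 in vehicle against 4.50 and 4.62 in clothianidin arrays at 10 weeks. Gstp1 read 11.35 and 11.25 against 11.98 and 11.39 at 10 weeks, and its mean of 0.60 ± 0.26 became 0.31 when the first 3 week vehicle array was omitted. Fmo4 read 5.01 and 4.16 against 4.06 and 3.95 at 3 weeks and 4.22 and 4.53 against 3.67 and 3.90 at 10 weeks, and its mean of -0.59 ± 0.23 was -0.37 without that array. Cyp3a57 gave -0.60 ± 0.23. Cyp1b1, a target of the aryl hydrocarbon receptor, read 4.45 and 4.48 against 4.52 and 4.87 at 3 weeks and 4.13 and 4.52 against 4.67 and 4.86 at 10 weeks, differences of 0.23 and 0.44. Its fellow targets Cyp1a1 and Cyp1a2 gave -0.03 and -0.52 at 3 weeks and 0.36 and -0.61 at 10 weeks, below the lower quartile throughout.

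**Figure D4:**
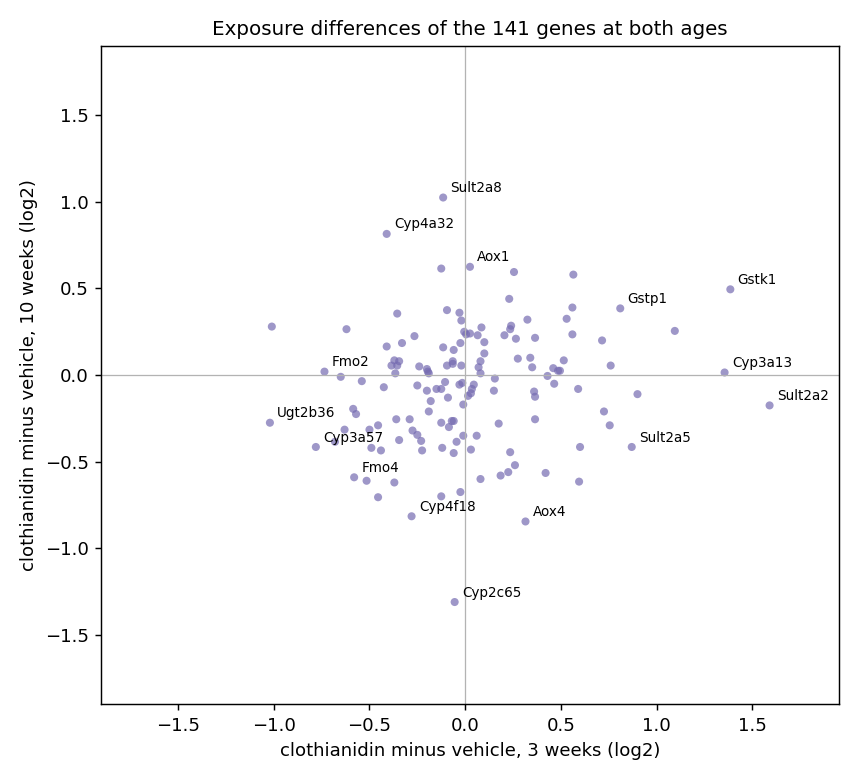
Difference between clothianidin and vehicle (log2) at 3 weeks, horizontal, and at 10 weeks, vertical, for each of the 141 genes; each point is 1 gene, and named genes follow the rule for naming, with Gstk1 added. Most points lie near the origin, with medians of -0.03 and -0.04, and no gene passed an adjusted p of 0.05 on either axis.

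The enzymes depend on other proteins, and 77 of 81 listed genes of this kind were measured. Between 3 and 10 weeks 9 of them rose and 2 fell (14.3%, against 11.2% of all clusters), and none passed for exposure. Among 14 sensors and regulators, 2 rose. Rxra, the retinoid X receptor that pairs with the drug-sensing nuclear receptors, read 5.88, 6.46, 6.40 and 6.38 at 3 weeks and 7.22, 7.32, 7.19 and 7.24 at 10 weeks, a rise of 0.96 ± 0.20 (adjusted p = 0.0154). Its relative Rxrb rose by 0.62 ± 0.18 (adjusted p = 0.0495). Of 15 genes for electron donors and cofactors, 3 rose. Papss2, which makes the sulfate donor used by all sulfotransferases, rose by 1.37 ± 0.26 (adjusted p = 0.0113), from 7.74 to 8.16 at 3 weeks to 8.51 to 10.07 at 10 weeks. Mocs1, needed for the molybdenum cofactor of the aldehyde oxidases, rose by 0.77 ± 0.19 (adjusted p = 0.0265), and Cyb5b, a cytochrome b5 of mitochondria, by 0.90 ± 0.23 (adjusted p = 0.0309).

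Of 22 other metabolising enzymes, 3 rose and none fell. Nat1, an arylamine N-acetyltransferase, read 4.63 to 5.30 at 3 weeks and 5.86 to 6.20 at 10 weeks, a rise of 1.01 ± 0.19 (adjusted p = 0.0125). Maoa, which degrades serotonin and noradrenaline, rose by 0.93 ± 0.19 (adjusted p = 0.0154), and the mitochondrial aldehyde dehydrogenase gene Aldh2 by 0.78 ± 0.23 (adjusted p = 0.0493). Of 15 transporters, Abcc5, an exporter of cyclic nucleotides, rose by 1.00 ± 0.19 (adjusted p = 0.0123). Abcb1b, a P-glycoprotein gene of drug efflux, fell by 1.19 ± 0.28 (adjusted p = 0.0226), with overlapping ages. Among 11 P450 genes of sterol, steroid and retinoid metabolism, Cyp51, the lanosterol demethylase of cholesterol synthesis, fell by 1.08 ± 0.19 (adjusted p = 0.0087), from 11.62 to 12.06 at 3 weeks to 10.55 to 10.80 at 10 weeks.

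**Figure D5:**
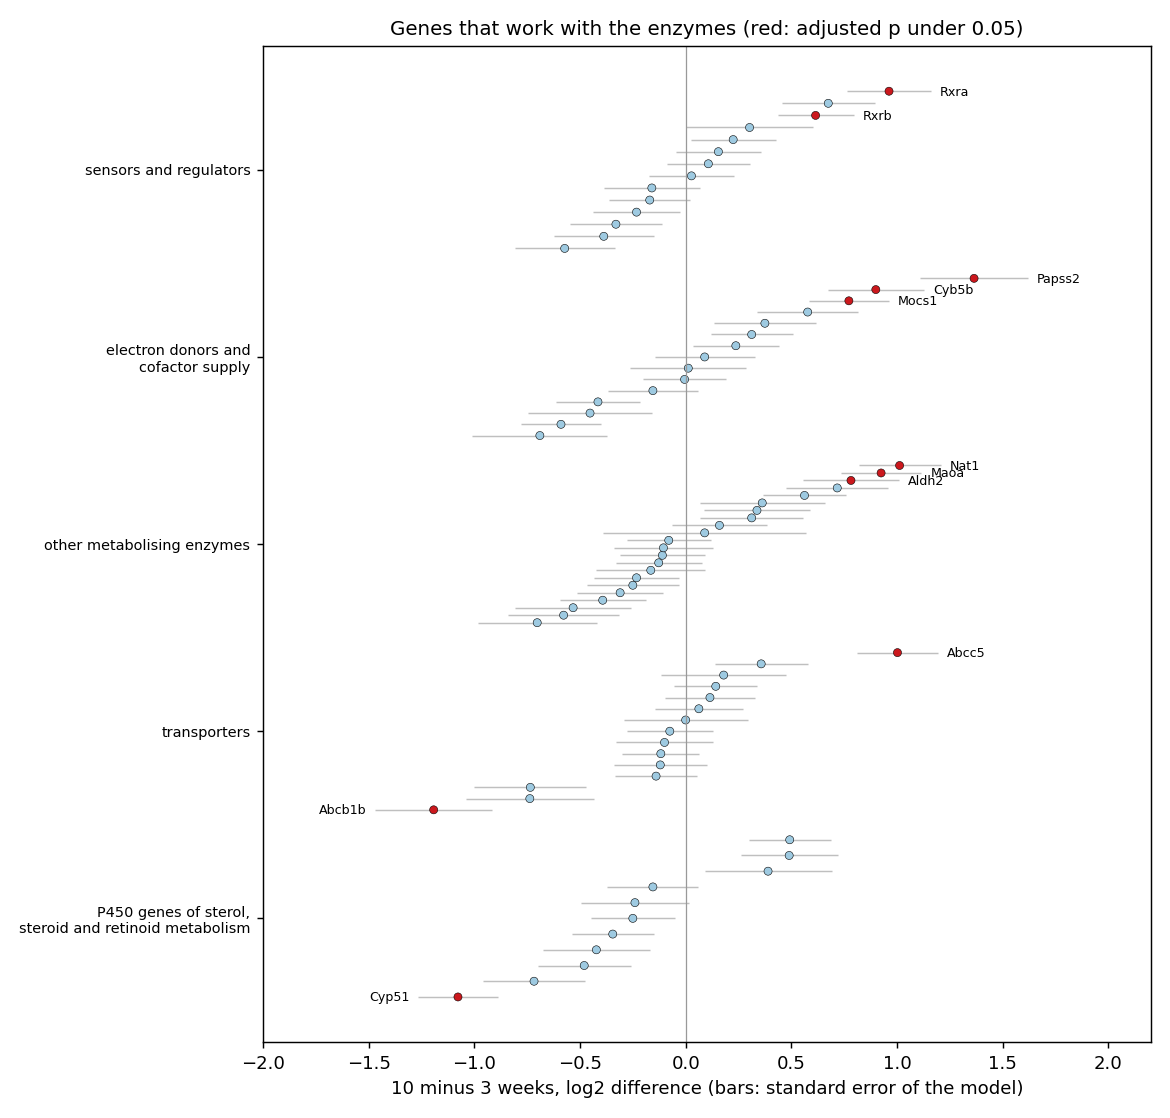
Difference between 10 and 3 weeks (log2) of 77 genes that work with the enzymes, by list, each point 1 gene and each bar the standard error of the model. Red points are the 11 genes past an adjusted p of 0.05, 9 to the right (higher at 10 weeks) and 2 to the left.

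For exposure, the regulators with the largest moderated t at 3 weeks were Nr1i2 and Nr1i3, the pregnane X and constitutive androstane receptors that drive Cyp3a and Cyp2b genes, at -0.85 ± 0.33 and -0.65 ± 0.28 (adjusted p = 0.846 in limma). Nr1i2 read 6.03 and 5.10 in vehicle against 4.79 and 4.64 in clothianidin arrays, and Nr1i3 read 5.24 and 4.82 against 4.43 and 4.34. For Nr1i2 the value was -0.39 or -1.31 when the first or second vehicle array was omitted. In both genes the clothianidin arrays lay below the vehicle arrays at 10 weeks too, by 0.29 and 0.38 in the means. Gsr, which regenerates glutathione, gave 0.67 ± 0.27 and Cyb5r3, a cytochrome b5 reductase, 0.85 ± 0.34 at 3 weeks, the latter 0.36 or 1.33 when the first or second vehicle array was omitted. At 10 weeks the efflux transporter gene Slc47a1 read 4.59 and 5.03 in vehicle against 3.44 and 3.61 in clothianidin arrays. Both clothianidin values lay below the lower quartile of their arrays. The difference was -1.29 ± 0.29 (adjusted p = 0.997 in limma). Cell-type list means, those of meninges and of others given above, also differed between these arrays. Their part in the Slc47a1 difference was not tested. Maob, the monoamine oxidase of astrocytes, gave 0.79 ± 0.32 at 10 weeks, or 0.47 when the first clothianidin array was omitted.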

How the data were processed

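The values deposited by the authors are log2 intensities of 22206 transcript clusters on 8 arrays. Per the submitters' processing notes they come from RMA. Version, genome build and whether arrays were normalised together are not given in the sources used here. Values run from 1.57 to 19.93 and no cluster was filtered out. Symbols came from the platform annotation; neighbours and promoters came from RefSeq GRCm38.p6. All clusters were fitted in limma 3.58.1 under R 4.3.3 by a single linear model of the 4 group means (4 residual degrees of freedom), with two-sided tests and Benjamini-Hochberg adjustment over all clusters at 0.05. The scripts were tested on simulated data. Array number, 2 per group, limits precision. Genes named were, per family, the 4 with the highest mean; per comparison, up to 10 each way past the threshold, filled to 3 from genes without overlap by moderated t; 9 enzymes known from earlier results or drug metabolism; and strongest partners. Any other gene was named after its values were seen. Members and lists were chosen with earlier results of these data known. Alternatives are listed in the closing section.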

Additional observations from a re-analysis of the deposited data

How the results depend on the processing

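The differences of the genes that the naming rule picked for each comparison were recomputed, and none changed sign under any alternative run. Other printed differences were recomputed only where such values stand beside them. The exposure comparisons gave 0 calls in every fit. A looser count (unadjusted p under 0.05 and at least 1.5-fold) gave 13 genes at 3 weeks (9.22%, against 5.83% of all clusters), 5 at 10 weeks (3.55%, against 3.67%), 8 for the difference between ages (5.67%, against 3.13%), 7 for the mean exposure effect (4.96%, against 3.13%) and 34 for age (24.1%, against 20.6%). For age, where 21 genes passed, an adjusted p under 0.1 gave 32 (22.7%, against 19.8%). Only clusters at or above the median level gave 4 of 32 genes tested, fits to the clothianidin or vehicle arrays alone gave 2 and 0, and leaving out the 3 arrays with Ttr above 18 gave 0. The fits to the vehicle arrays alone and without those 3 arrays called 0 of all clusters too, with fewer arrays. Leaving out each array in turn gave 6 to 22. Of all clusters, 10.3% of those at or above the median level passed for age, and 0.82% passed in the clothianidin arrays alone. With a replicate block the age count was 23, where 10.4% of all clusters passed, and the exposure counts were 0. It shared 20 of the 21 genes, lost Fmo9 and added Cyp1a2, Gstm4 and Gstt2. The labels do not state what the replicate numbers mark, and they were not taken as pairs: the deviations of same-numbered arrays correlated at -0.043 at 3 weeks and 0.138 at 10 weeks. Quantile normalisation gave 20, without Cyp2d22 and Fmo9, where 9.23% of all clusters passed. The other settings (priors, array weights, median centring, mean of clusters, Ttr as covariate, dim clusters removed) gave 19 to 22. In these, 10.2% to 11.8% of all clusters tested passed. With 2 arrays a group, and 38 genes below the lower quartile of every array, small differences could not be detected.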
